A study of Mus musculus with 12 samples.

Results

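Ctsk, the gene of the collagen-degrading protease cathepsin K, is described here in mouse osteoclasts with 7 genes that lie within 5 Mb of it on chromosome 3 (Celf3, Tmod4, Selenbp2, Arnt, Hist2h2be, Gm20633 and Gm20634) and with Hist1h2al, a histone H2A copy on chromosome 13 that is nearly identical to H2A genes near Ctsk. These 9 genes of the 55414 gene identifiers in the count files were chosen by name, with their response to Hes1 deletion already known. All 9 were among the 13403 genes that passed the filter on low counts. Celf3, Tmod4, Selenbp2 and Hist1h2al passed it only through the Hes1 deletion libraries. The differences between Hes1 deletion and Hes1 loxP libraries are therefore given for these genes as a description, with standard errors or counting intervals and without a test. The comparisons of Notch2 mutant with wild type cells, and the interaction, were not the measure the genes were chosen by and were tested. The 9 genes and all gene lists below were nevertheless chosen with earlier results of these data known.

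Osteoclasts are multinucleate cells that form from monocyte and macrophage precursors under M-CSF and RANKL and remove bone. They acidify a sealed space against the bone surface and secrete cathepsin K into it, where the enzyme cuts type I collagen and other matrix proteins. Notch2 is a receptor whose cleaved intracellular domain acts with the DNA-binding protein RBPJ on target genes, of which Hes1, a repressor of the basic helix-loop-helix class, is among the best known. Histone genes stand in clusters of near copies, and most of their transcripts end in a stem-loop rather than a poly(A) tail, so that libraries made from poly(A) RNA sample them unevenly.

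The cells were osteoclasts grown from bone marrow-derived macrophages of male mice aged 7-8 weeks, kept in M-CSF and given RANKL as well from day 3 for 4 days. The 4 groups, with 3 libraries each, were Notch2 mutant cells with Hes1 deletion, wild type cells with Hes1 deletion, Notch2 mutant cells with the Hes1 loxP allele and wild type cells with the Hes1 loxP allele. The labels call the libraries biological replicates and do not say whether they came from separate mice, so p-values measure the spread between these libraries. The sources used here do not give the Notch2 mutation, nor how and in which cells Hes1 was deleted. Deletion and loxP libraries may also differ in what removed Hes1 and in sequence inherited with it. The part of these in the Hes1 differences of all genes below cannot be told apart from the loss of Hes1 and was not tested. The libraries held 13832368 to 19293772 reads assigned to genes, and no pair of replicates agreed within sampling noise.

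The labels were checked on Hes1, which had 2 reads over the Notch2 mutant and 2 over the wild type deletion group, against 7 over the Notch2 mutant and 23 over the wild type loxP group. The ratio, scaled to depth, was 0.300 in Notch2 mutant cells, with a 95% counting interval of 0.0304 to 1.57, and 0.0865 in wild type cells (0.00988 to 0.350). In CPM the deletion libraries lay below the loxP libraries in both genotypes, at 11 reads or fewer in every library. Notch2 averaged 169 ± 6.92 and 163 ± 10.1 reads per 1e6 gene reads (CPM) in Notch2 mutant and wild type deletion cells and 156 ± 11.2 and 166 ± 6.67 CPM in Notch2 mutant and wild type loxP cells (SD, n = 3 each), with no call by edgeR (adjusted p = 0.865 and 0.659). All 8 osteoclast markers other than Ctsk were above 1 CPM in every group. Lymphocyte markers summed to group means between 0.900 and 1.56 CPM.

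The start regions of Ctsk, Celf3 and Tmod4 are shown because these 3 genes of the same chromosome differed between Hes1 states in opposite directions. Each runs from 250 bases before to 50 bases after a RefSeq transcription start (GRCm38.p6, plus strand). Ctsk is at chr3:95498960-95499259, Celf3 at chr3:94478045-94478344, the Celf3 start closest to the GENCODE one, and Tmod4 at chr3:95124264-95124563. Capitals mark matches to 3 short motifs, searched on both strands.
Ctsk: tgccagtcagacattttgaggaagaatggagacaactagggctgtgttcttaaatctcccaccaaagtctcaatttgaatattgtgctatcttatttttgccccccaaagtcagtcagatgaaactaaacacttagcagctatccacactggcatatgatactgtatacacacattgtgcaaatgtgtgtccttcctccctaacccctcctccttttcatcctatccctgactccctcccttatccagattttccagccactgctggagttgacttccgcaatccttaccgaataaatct
Celf3: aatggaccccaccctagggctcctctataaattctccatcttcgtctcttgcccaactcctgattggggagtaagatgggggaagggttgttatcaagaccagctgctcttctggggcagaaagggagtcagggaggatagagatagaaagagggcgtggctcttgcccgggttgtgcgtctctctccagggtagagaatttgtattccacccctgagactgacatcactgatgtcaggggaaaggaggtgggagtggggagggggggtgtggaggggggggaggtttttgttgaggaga
Tmod4: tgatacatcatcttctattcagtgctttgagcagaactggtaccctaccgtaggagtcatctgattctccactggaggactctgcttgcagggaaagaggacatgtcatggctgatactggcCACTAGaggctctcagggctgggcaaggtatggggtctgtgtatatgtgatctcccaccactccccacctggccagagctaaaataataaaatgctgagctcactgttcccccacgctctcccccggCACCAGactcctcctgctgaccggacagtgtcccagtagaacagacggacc
The motifs were CACGNG, the class C site bound by Hes proteins, CACNAG, the N box, and TGGGAA, the core of the RBPJ site. RefSeq promoters were matched for 5 of the 9 genes. In the promoter nearest to each GENCODE start, CACGNG and TGGGAA were found in 0 of the 5, and CACNAG in 3 of the 5, Tmod4, Selenbp2 and Arnt. RefSeq lists 7 starts for Celf3, of which 4 further downstream hold TGGGAA, 2 hold CACNAG and 0 hold CACGNG. Over 32534 mouse promoters of the same length the shares with a match were 27.6% for CACGNG, 25.4% for TGGGAA and 42.6% for CACNAG. A match is a run of letters and not a bound site, and its absence holds for this window alone.

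Ctsk (ENSMUSG00000028111, protein coding, chr3:95499256-95509362, plus strand, GRCm38) was among the most abundant transcripts of these cells and was lower with Hes1 deletion in both genotypes. In Notch2 mutant cells it measured 4973, 4876 and 5294 CPM with Hes1 deletion, against 10367, 10394 and 11132 CPM with Hes1 loxP. In wild type cells it measured 4937, 4750 and 4071 CPM with Hes1 deletion, against 8820, 9020 and 9237 CPM with Hes1 loxP. The 6 deletion libraries all lay below the 6 loxP libraries, and the lowest of them was wild type replicate 3, which also stood farthest from its replicates over all genes. In bulk samples the level of a gene alone cannot tell fewer cells of a type from less RNA per cell, so the other osteoclast markers are given beside it.

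**Figure D1:**
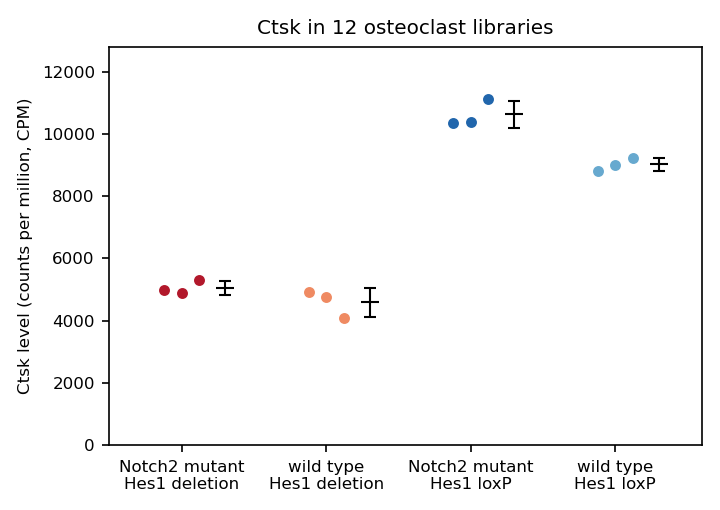
Ctsk level in CPM (vertical axis) in each of the 12 libraries. Each point is a library, and the bar beside each group is its mean with the SD of 3 libraries. The deletion groups average 5048 and 4586 CPM, and the loxP groups 10631 and 9026 CPM, with no overlap between Hes1 states.

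The fold was 0.465 in Notch2 mutant cells, a log2 fold change of -1.11 ± 0.07 (SE), and 0.502 in wild type cells, a log2 fold change of -0.99 ± 0.07. With any 1 library left out the log2 fold change stayed between -1.14 and -1.06 in Notch2 mutant cells and between -1.06 and -0.91 in wild type cells. Per kilobase of annotated transcript, Ctsk ranked 4 and 5 among 52081 named genes in Notch2 mutant and wild type deletion cells, and 1 in both loxP groups. Its share of all gene reads was 0.505% and 0.459% in the deletion groups, against 1.06% and 0.903% in the loxP groups. None of the 75-base windows of the Ctsk transcript occurred letter for letter in another annotated gene. Near matches and unannotated sequence were not searched.

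The summed level of the other osteoclast markers did not show a matching drop. It spanned 31516 to 35303 CPM in Notch2 mutant deletion cells, against 34160 to 38092 CPM in Notch2 mutant loxP cells. In wild type cells the sum spanned 26160 to 31541 CPM with deletion, against 28845 to 31525 CPM with loxP. Most of the sum was Mmp9 and Acp5, which averaged 22000 and 8398 CPM of 33552 CPM in Notch2 mutant deletion cells. The summed level of 11 stromal and osteoblast markers, of which 7 or 8 reached 1 CPM, spanned 206 to 292 CPM in Notch2 mutant deletion cells, against 115 to 241 CPM in Notch2 mutant loxP cells. In wild type cells it spanned 325 to 343 CPM with deletion, against 245 to 291 CPM with loxP, with no overlap. Bglap, the gene of osteocalcin, was at 0 in wild type deletion and Notch2 mutant loxP cells, and Lum, the gene of lumican, in wild type loxP cells. The part of stromal RNA in the Ctsk values was not tested.

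Between Notch2 genotypes Ctsk differed by far less than between Hes1 states. Notch2 itself starts 2514 kb after Ctsk on chromosome 3. The part of sequence inherited with the Notch2 allele in the Ctsk difference cannot be told apart from the mutation here and was not tested. Averaged over both Hes1 states it was higher in Notch2 mutant cells, with a log2 fold change of 0.21 ± 0.05 (SE) and an adjusted p of 0.0364 in edgeR's quasi-likelihood test. With Hes1 loxP the 3 Notch2 mutant libraries lay above the 3 wild type libraries, with a log2 fold change of 0.26 ± 0.07 that did not pass (edgeR adjusted p = 0.0793). With Hes1 deletion the libraries of the 2 genotypes overlapped, and the log2 fold change was 0.15 ± 0.07 (edgeR adjusted p = 0.744). The interaction, the Notch2 effect with deletion minus that with loxP, was -0.11 ± 0.10 on the log2 scale (edgeR adjusted p = 0.999), so a difference between the 2 Notch2 effects was not shown. In descending order the Ctsk levels were Notch2 mutant loxP, wild type loxP, Notch2 mutant deletion and wild type deletion, and of these neighbours the last pair overlapped.

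The averaged call for Ctsk depended on single libraries. It was lost without Notch2 mutant deletion replicate 1 or 3, without Notch2 mutant loxP replicate 1 or 3, and without wild type loxP replicate 1 or 2, with edgeR adjusted p from 0.0515 to 0.124. The comparison with Hes1 loxP passed in DESeq2 (adjusted p = 0.0101) and in edgeR without wild type deletion replicate 3 (adjusted p = 0.0117). The summed osteoclast markers moved the same way, averaging 33552 ± 1910 CPM in Notch2 mutant and 29636 ± 3015 CPM in wild type deletion cells, and 36202 ± 1971 CPM in Notch2 mutant and 29851 ± 1460 CPM in wild type loxP cells (SD, n = 3 each). Stromal markers moved the other way, averaging 242 ± 44.6 CPM in Notch2 mutant and 337 ± 10.4 CPM in wild type deletion cells, and 184 ± 64.4 CPM in Notch2 mutant and 268 ± 22.8 CPM in wild type loxP cells (SD, n = 3 each). Neutrophil markers, all 7 above 1 CPM, spanned 149 to 195 CPM in Notch2 mutant and 155 to 223 CPM in wild type deletion cells, and 159 to 217 CPM in Notch2 mutant and 210 to 279 CPM in wild type loxP cells. Megakaryocyte and erythroid markers, of which 1 or 2 of 4 reached 1 CPM and Hbb-bs was at 0, spanned 30.7 to 36.9 CPM in Notch2 mutant and 33.4 to 37.9 CPM in wild type deletion cells. They spanned 30.5 to 34.6 CPM in Notch2 mutant and 47.4 to 54.6 CPM in wild type loxP cells, so the wild type loxP libraries stood above the other 3 groups. Macrophage and monocyte markers, all 8 at 1 CPM or more, spanned 4531 to 4732 CPM in Notch2 mutant and 4457 to 4632 CPM in wild type deletion cells. They spanned 4325 to 4759 CPM in Notch2 mutant and 4482.5 to 4680.5 CPM in wild type loxP cells, so the genotypes overlapped. The part of these markers in the Ctsk differences was not tested.

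Other genes of bone resorption were set beside Ctsk. Of 19 such genes, all tested and 8 of them the osteoclast markers above, 0 passed in either Hes1 comparison (edgeR, with 0 at unadjusted p under 0.05 and 0 by DESeq2 or limma-voom), where 0.0373% of all genes were called in each. Their median log2 fold change was -0.07 in Notch2 mutant and -0.04 in wild type cells, against 0.00 over all genes tested in each. The value was negative for 18 of the 19 in Notch2 mutant and for 17 in wild type cells. Averaged over Hes1 states, 8 of the 19 rose in Notch2 mutant cells and 0 fell by edgeR, where 1.89% of all genes were called. DESeq2 and limma-voom each called 10. Ocstamp, needed for osteoclast fusion, rose by 0.22 ± 0.04 on the log2 scale (SE, edgeR adjusted p = 0.00909). Acp5, the gene of tartrate-resistant acid phosphatase, rose by 0.29 ± 0.06 (edgeR adjusted p = 0.0133), and Tcirg1, a subunit of the proton pump, by 0.21 ± 0.04 (edgeR adjusted p = 0.0132). With any 1 library left out the edgeR count ranged from 1 to 9. It fell to 1 without Notch2 mutant deletion replicate 3, and to 3 without Notch2 mutant loxP replicate 3 or wild type loxP replicate 1. It fell to 4 without Notch2 mutant deletion replicate 1 or wild type loxP replicate 2, and to 5 without wild type deletion replicate 3.

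Of 15 cathepsins, their inhibitors and related lysosomal proteases, 14 were tested and 0 passed in either Hes1 comparison (edgeR, with 1 at unadjusted p under 0.05 in each and 0 by DESeq2 or limma-voom), where 0.0373% of all genes were called in each. Averaged over Hes1 states, 2 fell in Notch2 mutant cells and 0 rose, where 1.89% of all genes were called. At unadjusted p under 0.05 there were 7, and DESeq2 and limma-voom each called 3. The edgeR count was 1 without Notch2 mutant deletion replicate 2 or 3, wild type deletion replicate 2 or Notch2 mutant loxP replicate 2 or 3, and 3 without wild type deletion replicate 1. Ctsl, the gene of cathepsin L, fell by 0.41 ± 0.07 on the log2 scale (SE, edgeR adjusted p = 0.00485). Ctss, the gene of cathepsin S and the nearest tested neighbour downstream of Ctsk, fell by 0.28 ± 0.06 (edgeR adjusted p = 0.0345), opposite in sign to Ctsk.

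Of 12 transcription factors known to act on Ctsk, among them Nfatc1, the master regulator of osteoclast formation, and Mitf, 0 passed in either Hes1 comparison or in any Notch2 comparison by edgeR. Of all genes, 0.0373% were called in each Hes1 comparison, and 0.0149% with deletion, 0.776% with loxP and 1.89% averaged between Notch2 genotypes, and 0 of 12 is near these shares. At unadjusted p under 0.05 there were 1 and 2 in Notch2 mutant and wild type cells between Hes1 states, and for Notch2 mutant against wild type 1 with deletion, 3 with loxP and 3 averaged. DESeq2 and limma-voom called 1 in the averaged Notch2 comparison and 0 in the other comparisons. Nfatc1 averaged 1044 ± 43.8 and 970 ± 17.0 CPM in Notch2 mutant and wild type deletion cells, and 1044 ± 31.5 and 968 ± 43.9 CPM in Notch2 mutant and wild type loxP cells (SD, n = 3 each).

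Celf3 (ENSMUSG00000028137, chr3:94478295-94492198, plus strand), an RNA-binding protein of the CELF family best known from the nervous system, starts 1021 kb before Ctsk and went opposite to it. It had 65, 47 and 58 reads in Notch2 mutant deletion libraries, against 0, 3 and 1 in Notch2 mutant loxP libraries. In wild type cells it had 74, 67 and 42 reads with deletion, against 0, 0 and 0 with loxP. It was present in all 6 deletion libraries and nearly absent from all 6 loxP libraries. The ratio of reads, scaled to depth, was 44.6 in Notch2 mutant cells, with a 95% counting interval of 17.1 to 165. In wild type cells Celf3 was at least 60.7-fold higher with deletion, taking 3 reads over the loxP group as the floor. With any 1 library left out the ratio in Notch2 mutant cells stayed between 32.1 and 114, with 114 without loxP replicate 2. The bound in wild type cells stayed between 37.8-fold and 67.8-fold, with 37.8-fold without loxP replicate 2.

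The Celf3 level was low in absolute terms, 3.63 ± 0.816 CPM in Notch2 mutant and 3.53 ± 0.835 CPM in wild type deletion cells (SD, n = 3 each). Those 2 groups overlapped, with a ratio of 1.01 and a counting interval of 0.816 to 1.25 (edgeR adjusted p = 0.986). Of the Celf3 exons, 74 bases (1.35%) lie opposite exons of Riiad1, which had 14 reads over all 12 libraries. No 75-base window of its transcript was shared with another gene.

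Tmod4 (ENSMUSG00000005628, chr3:95124476-95129209, plus strand), a tropomodulin that caps actin filaments in skeletal muscle, starts 375 kb before Ctsk. It had 11, 12 and 10 reads in Notch2 mutant deletion libraries, against 0, 1 and 3 in Notch2 mutant loxP libraries, and 12, 6 and 10 in wild type deletion libraries, against 1, 3 and 1 in wild type loxP libraries. The deletion libraries were higher without overlap. The ratio was 8.65 in Notch2 mutant cells (counting interval 3.08 to 33.6) and 5.57 in wild type cells (2.12 to 18.5). With any 1 library left out the ratio stayed between 6.23 and 22.2 in Notch2 mutant cells, with 22.2 without loxP replicate 3. In wild type cells it stayed between 4.51 and 8.67, with 8.67 without loxP replicate 2. At 0.700 ± 0.0685 and 0.550 ± 0.194 CPM in Notch2 mutant and wild type deletion cells (SD, n = 3 each), Tmod4 was nevertheless a trace transcript.

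Selenbp2 (ENSMUSG00000068877, chr3:94693556-94704413, plus strand), a selenium-binding protein gene, starts 806 kb before Ctsk. It had 11, 15 and 9 reads in Notch2 mutant deletion libraries, against 8, 2 and 6 in Notch2 mutant loxP libraries, and 23, 23 and 8 in wild type deletion libraries, against 4, 9 and 4 in wild type loxP libraries. In CPM the groups overlapped in Notch2 mutant cells and were apart in wild type cells. The ratio was 2.29 (counting interval 1.24 to 4.44) in Notch2 mutant and 3.16 (1.80 to 5.81) in wild type cells. Its value is uncertain because 34.6% of its 75-base windows also occur in the paralog Selenbp1.

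Arnt (ENSMUSG00000015522, chr3:95434388-95497240, plus strand), the partner of the hypoxia-inducible factors and the aryl hydrocarbon receptor, ends 2015 bases before the Ctsk gene begins. It measured 57.4, 54.3 and 52.5 CPM in Notch2 mutant deletion libraries, against 55.2, 58.1 and 56.9 CPM in Notch2 mutant loxP libraries, and 56.3, 57.9 and 56.3 CPM in wild type deletion libraries, against 58.8, 55.7 and 56.4 CPM in wild type loxP libraries. All 4 groups overlapped. It averaged 54.7 ± 2.51 and 56.9 ± 0.920 CPM in Notch2 mutant and wild type deletion cells, and 56.7 ± 1.42 and 57.0 ± 1.63 CPM in Notch2 mutant and wild type loxP cells (SD, n = 3 each). The log2 fold change of deletion against loxP was -0.08 ± 0.05 in Notch2 mutant and -0.02 ± 0.05 in wild type cells (SE). Between Notch2 genotypes it was 0.02 ± 0.05 with loxP and -0.04 ± 0.05 with deletion (SE, edgeR adjusted p = 0.906 and 0.917).

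**Figure D2:**
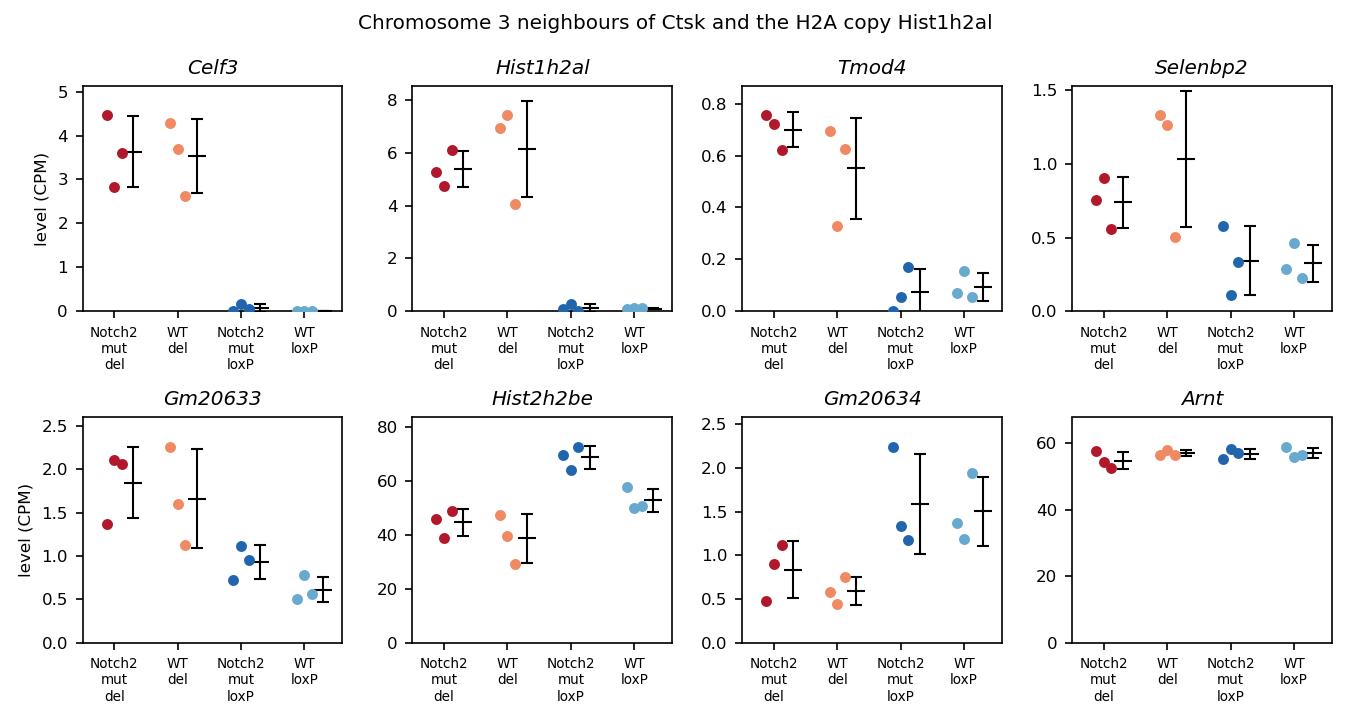
Levels in CPM (vertical axes, each from 0) of the 8 genes other than Ctsk in 12 libraries, by group. Each point is a library, the bar beside each group is its mean and SD (n = 3), mut stands for mutant, WT for wild type and del for Hes1 deletion. Celf3 and Hist1h2al are near 0 in the loxP groups, Hist2h2be and Gm20634 are higher there, and Arnt is between 52.5 and 58.8 CPM throughout.

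Hist2h2be (ENSMUSG00000068854, chr3:96221119-96223738, plus strand), an H2B gene with a long transcript of 2620 bases, starts 722 kb after Ctsk and was lower with Hes1 deletion. It measured 46.0, 38.9 and 48.8 CPM in Notch2 mutant deletion libraries, against 69.5, 64.0 and 72.6 CPM in Notch2 mutant loxP libraries. In wild type cells it measured 47.4, 39.5 and 29.1 CPM with deletion, against 57.8, 50.02 and 50.6 CPM with loxP. The deletion libraries lay below the loxP libraries in both genotypes, with wild type deletion replicate 3 again lowest. The log2 fold change was -0.66 ± 0.12 in Notch2 mutant and -0.46 ± 0.13 in wild type cells (SE). With any 1 library left out it stayed between -0.73 and -0.56 in Notch2 mutant cells and between -0.64 and -0.29 in wild type cells, where it was -0.29 without deletion replicate 3.

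Between Notch2 genotypes Hist2h2be was higher without overlap in Notch2 mutant loxP than in wild type loxP libraries, with a log2 fold change of 0.41 ± 0.12 that did not pass (SE, edgeR adjusted p = 0.126). Averaged over Hes1 states the log2 fold change was 0.31 ± 0.09 (edgeR adjusted p = 0.0756). No 75-base window of its transcript was shared with another annotated gene.

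The level of Hist2h2be was set beside that of Ctsk over the libraries. Both genes were chosen for their difference between Hes1 states, which also enters a correlation over all 12 libraries, so the rank is a description only. Among 11125 genes whose log2 CPM averaged 1 or more, it ranked 5 by Pearson correlation with Ctsk over the 12 libraries. Within Hes1 states r was 0.960 over the 6 deletion libraries and 0.891 over the 6 loxP libraries, in which Notch2 genotype also differs. Wild type deletion replicate 3 was lowest for both genes, with 4071 CPM of Ctsk and 29.1 CPM of Hist2h2be. The r within the deletion libraries may lean on it and was not computed without it. Of the other genes compared, 0.782% had a higher r with Ctsk within the deletion libraries and 3.76% within the loxP libraries. The genes ranked above it were Rere (r = 0.912 over 12 libraries, 0.632 within deletion and 0.716 within loxP), Tbccd1 (0.907, 0.757 and 0.578), Wbp1 (0.903, 0.193 and 0.762) and Rnf24 (0.889, 0.777 and 0.799). Over 12 libraries Hist2h2be had r = 0.885. The most opposite genes were Uri1 (r = -0.905 over 12 libraries), Xaf1 (-0.861), Tex30 (-0.860), Cdc20 (-0.849) and Gas5 (-0.844). All these values share the depth and composition of the same libraries.

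**Figure D3:**
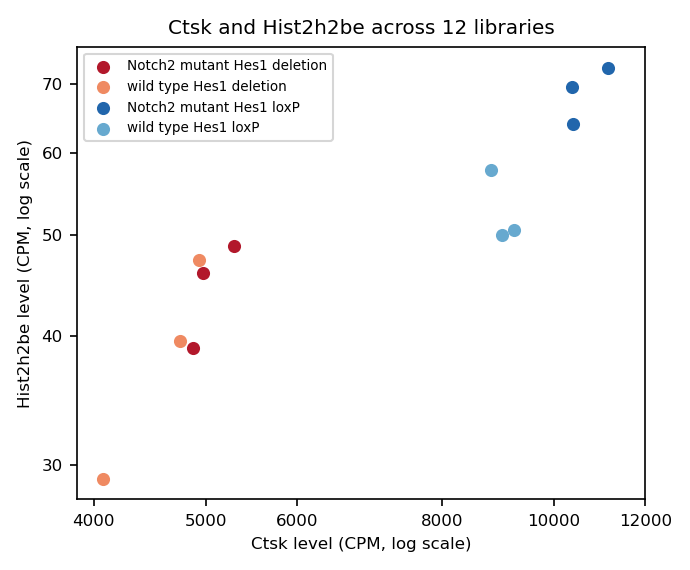
Ctsk level (horizontal axis) against Hist2h2be level (vertical axis), both in CPM on log scales, with 1 point per library coloured by group. The deletion libraries lie at the lower left, between 4071 and 5294 CPM of Ctsk, and the loxP libraries at the upper right, between 8820 and 11132 CPM, with Notch2 mutant loxP libraries highest on both axes.

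Hist1h2al (ENSMUSG00000091383, chr13:51202727-51203065, minus strand) is annotated as a processed pseudogene of 339 bases. Over these 339 bases it is 99.4% identical to Hist2h2aa1 and Hist2h2aa2 on chromosome 3, which are identical to each other, and 98.2% identical to Hist2h2ac. Both differences from the Hist2h2aa genes are shown because reads that cover neither of them cannot be assigned to 1 copy. The capitals mark the differing base, C120T and T216G, with positions counted from 1 at the first base of Hist1h2al, and each stretch shows 30 bases on either side. The sequences are GENCODE M21 transcripts, 5′ to 3′ on the transcript strand.
Hist1h2al, bases 90 to 150: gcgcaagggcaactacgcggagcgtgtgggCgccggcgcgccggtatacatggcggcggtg
Hist2h2aa2, same stretch: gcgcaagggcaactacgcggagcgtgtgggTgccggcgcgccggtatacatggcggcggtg
Hist1h2al, bases 186 to 246: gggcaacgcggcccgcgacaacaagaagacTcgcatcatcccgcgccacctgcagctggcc
Hist2h2aa2, same stretch: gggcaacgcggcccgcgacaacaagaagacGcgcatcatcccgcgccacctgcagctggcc
Of the 265 windows of 75 bases in Hist1h2al, 121 (45.7%) occur letter for letter in another annotated gene, so the count of Hist1h2al is uncertain.

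Reads assigned to Hist1h2al came mostly from the deletion libraries. It had 77, 79 and 98 reads in Notch2 mutant deletion libraries, against 1, 5 and 0 in Notch2 mutant loxP libraries. In wild type cells it had 120, 135 and 65 reads with deletion, against 1, 2 and 2 with loxP. The groups did not overlap in either genotype. The ratio was 44.4 in Notch2 mutant (counting interval 20.1 to 122) and 63.7 in wild type cells (27.0 to 197). With any 1 library left out it stayed between 28.4 and 170 in Notch2 mutant cells, with 28.4 without loxP replicate 3 and 170 without loxP replicate 2, and between 56.9 and 73.5 in wild type cells. Between Notch2 mutant and wild type deletion cells the ratio was 0.864 (0.730 to 1.02).

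The chromosome 3 copies together averaged 1.58 ± 0.556 and 1.48 ± 0.141 CPM in Notch2 mutant and wild type deletion cells (SD, n = 3 each). In Notch2 mutant and wild type loxP cells they averaged 1.11 ± 0.0954 and 1.35 ± 0.713 CPM (SD, n = 3 each). As counted, their mean was not lower with deletion. Hist2h2aa2 averaged 1.51 ± 0.558 and 1.32 ± 0.0571 CPM in Notch2 mutant and wild type deletion cells, and 1.04 ± 0.176 and 1.33 ± 0.716 CPM in Notch2 mutant and wild type loxP cells (SD, n = 3 each). Hist2h2aa1 had 0 reads in every library, and Hist2h2ac had 16 in all. Gm20634 covers 90.3% of the Hist2h2aa1 exon on the same strand, so its count of 0 need not mean an absent transcript. The sum of these copies cannot show whether reads moved between them. The sum of Hist1h2al and these 3 copies was 6.96 ± 0.190 and 7.63 ± 1.73 CPM in Notch2 mutant and wild type deletion cells, and 1.23 ± 0.0516 and 1.45 ± 0.693 CPM in Notch2 mutant and wild type loxP cells (SD, n = 3 each). Most of the sum in the deletion groups was Hist1h2al itself, with 5.38 CPM in Notch2 mutant and 6.15 CPM in wild type cells, and the part of read assignment between copies was not tested. Hist3h2a, a less similar H2A gene (84.7% identical), averaged 6.31 ± 0.270 and 6.06 ± 0.578 CPM in Notch2 mutant and wild type deletion cells, and 6.08 ± 0.681 and 6.12 ± 0.962 CPM in Notch2 mutant and wild type loxP cells (SD, n = 3 each). It was named after its values were seen.

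**Figure D4:**
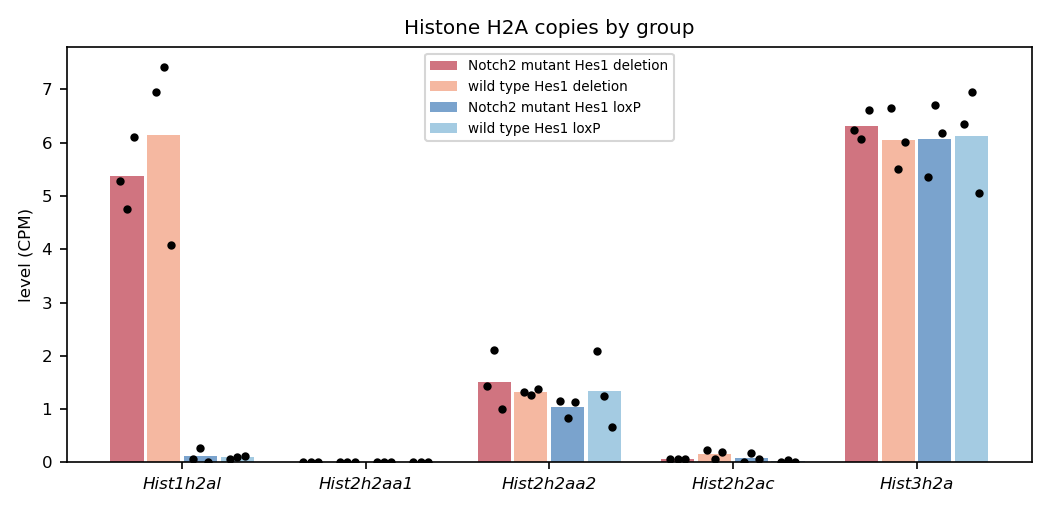
Levels in CPM (vertical axis from 0) of 5 histone H2A genes, with bars for the group mean and points for the 3 libraries of each group. Hist1h2al is at 5.38 and 6.15 CPM in the deletion groups and near 0 in the loxP groups. Hist2h2aa1, of whose exon 90.3% lies under Gm20634 on the same strand, is at 0 throughout. Hist2h2aa2 and Hist3h2a overlap between Hes1 states, and Hist2h2ac has 16 reads in all.

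Other replication-dependent histone genes were set beside these copies. Of 68 annotated in the files, 18 were tested and 0 passed in any comparison by edgeR, where 0.0% to 1.89% of all genes were called. Between Notch2 genotypes 1 passed with loxP without wild type deletion replicate 3, and averaged 2 passed without Notch2 mutant deletion replicate 2 or wild type deletion replicate 1 and 1 without Notch2 mutant loxP replicate 2. At unadjusted p under 0.05 there were 1 in Notch2 mutant and 0 in wild type cells between Hes1 states, with 0 called by DESeq2 or limma-voom. Averaged over Hes1 states there were 6 for Notch2 mutant against wild type, with 1 called by DESeq2 and 0 by limma-voom, and with Hes1 deletion 1, with 0 called by either. For Notch2 mutant against wild type with Hes1 loxP there were 5 at unadjusted p under 0.05 and 0 called by either, and 15 of 18 values were positive with a median log2 fold change of 0.27, against 0.00 over all genes tested. Hist1h1c, a linker histone gene, had the lowest adjusted p there, with a log2 fold change of 0.36 ± 0.11 (SE, edgeR adjusted p = 0.124).

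Gm20633 (ENSMUSG00000093553, antisense, chr3:96243550-96246380, minus strand) and Gm20634 (ENSMUSG00000070392, processed transcript, chr3:96245554-96248509, plus strand) are non-coding annotations over the histone genes Hist2h2aa1 and Hist2h3c1, and they moved in opposite directions. Gm20633 had 20, 35 and 33 reads in Notch2 mutant deletion libraries, against 10, 20 and 17 in Notch2 mutant loxP libraries, and 39, 29 and 18 in wild type deletion libraries, against 7, 15 and 10 in wild type loxP libraries. Gm20634 had 7, 15 and 18 reads in Notch2 mutant deletion libraries, against 31, 24 and 21 in Notch2 mutant loxP libraries, and 10, 8 and 12 in wild type deletion libraries, against 19, 23 and 35 in wild type loxP libraries. In CPM, neither overlapped between Hes1 states. The Gm20633 ratio was 1.96 in Notch2 mutant (counting interval 1.36 to 2.86) and 2.67 in wild type cells (1.76 to 4.15). The Gm20634 ratio was 0.552 (0.367 to 0.820) in Notch2 mutant and 0.388 (0.245 to 0.598) in wild type cells.

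Both values are uncertain, because the annotations overlap. Gm20633 and Gm20634 share 827 exon bases on opposite strands. Gm20634 covers 90.3% of the Hist2h2aa1 exon and all of Hist2h3c1 on the same strand, and Gm20633 covers all of Hist2h2aa1 on the other strand. Both histone genes had 0 reads in every library. In addition, 35.0% of the Gm20633 windows and 88.8% of the Gm20634 windows of 75 bases occur in other genes. Gm20632, which lies opposite Hist2h2aa2 and was named after its values were seen, averaged 2.03 ± 0.150 and 1.498 ± 0.311 CPM in Notch2 mutant and wild type deletion cells, and 1.07 ± 0.186 and 1.03 ± 0.236 CPM in Notch2 mutant and wild type loxP cells (SD, n = 3 each).

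Over both genotypes, 7 of the 9 genes had 6 deletion libraries apart from 6 loxP libraries in CPM, all but Selenbp2 and Arnt, where 0.433% of all genes did. The genes were chosen on this contrast, so nothing is read from that count. With Hes1 loxP, 0 of 9 passed edgeR, where 0.776% of all genes were called, with 3 at unadjusted p under 0.05 (Ctsk, Celf3 and Hist2h2be), 1 called by DESeq2 (Ctsk) and 0 by limma-voom. For Celf3 that p rests on 4 reads in Notch2 mutant and 0 in wild type loxP cells, and nothing is read from it. Celf3, Tmod4, Hist1h2al and Selenbp2 passed the filter only through the deletion libraries. In Notch2 mutant and wild type loxP cells Tmod4 had 4 and 5 reads, Hist1h2al 6 and 5, and Selenbp2 16 and 17. A loxP call was hardly possible for these genes, so nothing is read from the count of 0. Their few loxP reads also enter the averaged comparison and the interaction. The libraries of the 2 genotypes did not overlap for 2 of 9, Ctsk and Hist2h2be, where 18.3% of all genes did not overlap. With Hes1 deletion, 0 of 9 passed and 0 of 9 were without overlap, where 0.0149% of all genes were called and 12.4% did not overlap, with 1 at unadjusted p under 0.05 (Ctsk) and 0 by DESeq2 or limma-voom.

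Averaged over Hes1 states, 1 of 9 passed, Ctsk, where 1.89% of all genes were called, and DESeq2 and limma-voom also called Ctsk alone. The other 8 genes had edgeR adjusted p from 0.0756 to 0.971. For the interaction, 0 of 9 passed edgeR, where 0.0% of all genes were called, with 1 at unadjusted p under 0.05 (Celf3, through the same 4 and 0 loxP reads) and 0 by DESeq2 or limma-voom. The Notch2 comparisons share libraries with the Hes1 comparisons and are not independent of them.

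The region around Ctsk was then described, with genes taken by position. Within 5 Mb of the Ctsk start the files hold 412 genes, of which 107 were tested, and 99 of these are not among the 9 genes. Of the 107, 2 passed edgeR in each Hes1 comparison (1.87%, where 0.0373% of all genes were called), all among the 9 genes. Those genes were chosen on this contrast, so nothing is read from that count or from the lack of calls without them. Of the 99, 0 passed edgeR, DESeq2 or limma-voom in either Hes1 comparison. At unadjusted p under 0.05 there were 9 of 99 (9.09%) in Notch2 mutant and 15 of 99 (15.2%) in wild type cells, against 4.76% and 5.93% of all genes tested. Their libraries did not overlap for 19 of 99 in each genotype, beside 11.0% of all genes in Notch2 mutant and 10.9% in wild type cells. The median absolute log2 fold change of the 99 was 0.08 in each genotype, against 0.07 over all genes.

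**Figure D5:**
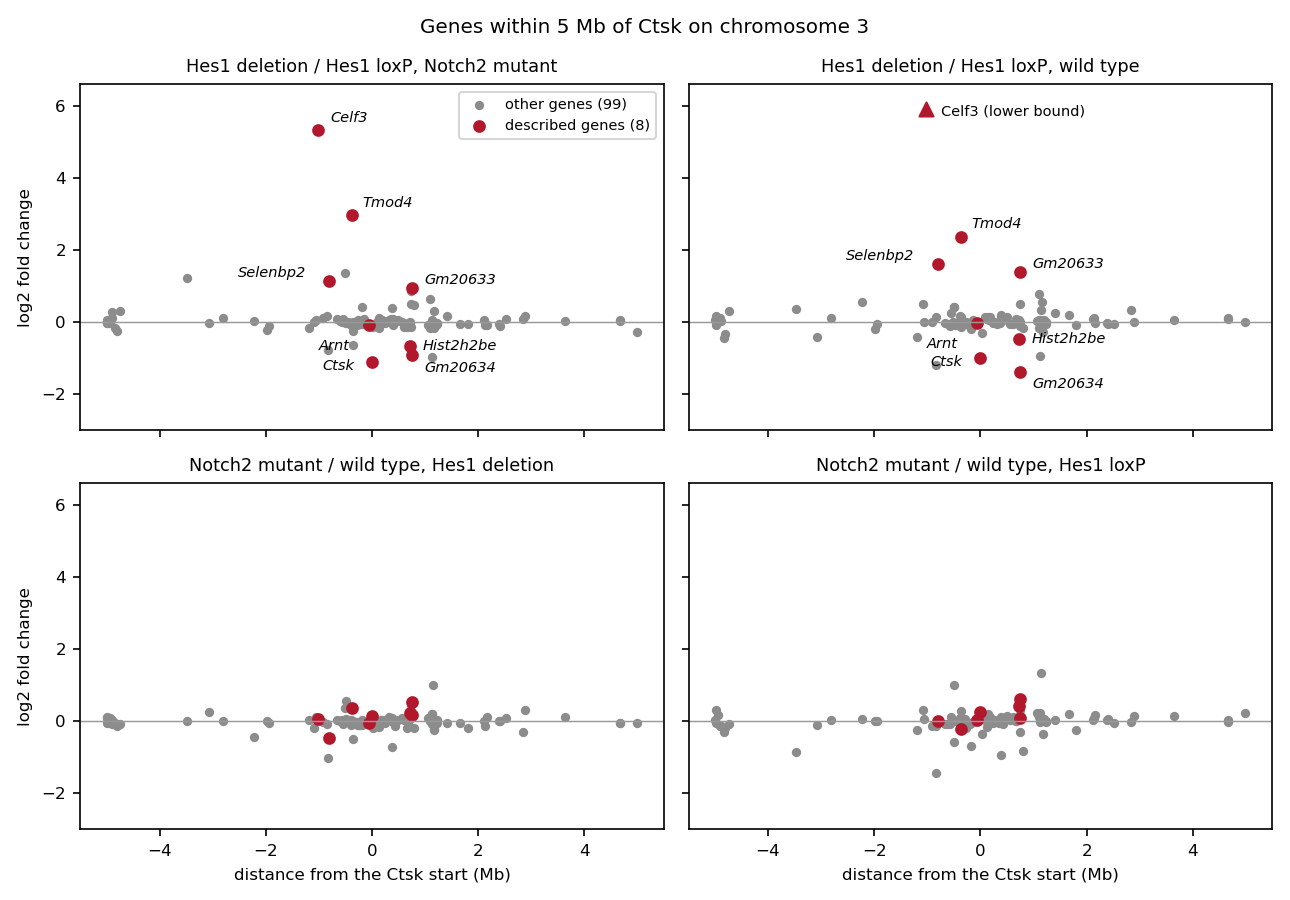
Log2 fold change (vertical axis) against distance from the Ctsk start in Mb (horizontal axis) for 107 tested genes, with 8 described genes in red and 99 others in grey. Upper panels show Hes1 deletion against Hes1 loxP in Notch2 mutant and wild type cells, and lower panels Notch2 mutant against wild type with Hes1 deletion and Hes1 loxP. The triangle is a lower bound for Celf3, which is left out of the panel of loxP cells because 1 group has no reads. In the upper panels the red points reach from Celf3 at 5.34 to Ctsk at -1.11 in Notch2 mutant cells, while most grey points lie near 0.

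Differences were then set beside the distance from Ctsk. The described genes were chosen on the Hes1 contrast and are left out of the medians below. These medians therefore cannot show whether differences depend on distance, and nothing is read from them on that. Within 0.5 Mb, 3 of 37 tested genes were among those described (Ctsk, Tmod4 and Arnt), between 0.5 and 1.5 Mb 5 of 41, and between 1.5 and 5 Mb 0 of 29. Among the other genes the median absolute log2 fold change between Hes1 states was 0.05, 0.09 and 0.08 in these 3 ranges in Notch2 mutant cells and 0.07, 0.08 and 0.10 in wild type cells. Ctss, 27.5 kb after the Ctsk start, averaged 443 ± 40.9 and 508 ± 25.3 CPM in Notch2 mutant and wild type deletion cells, and 472 ± 37.2 and 620 ± 98.7 CPM in Notch2 mutant and wild type loxP cells (SD, n = 3 each). Its log2 fold change of deletion against loxP was -0.12 ± 0.09 in Notch2 mutant and -0.31 ± 0.09 in wild type cells (SE, edgeR adjusted p = 0.977 and 0.516).

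Notch2 itself lies in this region, 2514 kb after the Ctsk start. The part of sequence inherited with its allele in the Notch2 differences of nearby genes cannot be told apart from the mutation and was not tested. The summed macrophage and monocyte markers, which include Fcgr1, overlapped between Notch2 genotypes in both Hes1 states. In the Notch2 comparisons of this region, Fcgr1 itself, the high-affinity Fc receptor of macrophages, fell in Notch2 mutant cells. With Hes1 loxP it averaged 23.3 ± 3.24 CPM in Notch2 mutant and 42.2 ± 10.4 CPM in wild type cells (SD, n = 3 each), without overlap and with a log2 fold change of -0.83 ± 0.14 (SE, edgeR adjusted p = 0.0127). This was the single call among the 107 there (0.935%, where 0.776% of all genes were called), and it was lost without Notch2 mutant loxP replicate 3 (edgeR adjusted p = 0.0604). Averaged over Hes1 states 4 of the 107 passed (3.74%, where 1.89% of all genes were called): Ctsk was higher, and Fcgr1 (log2 fold change -0.51 ± 0.10, edgeR adjusted p = 0.0131), Cdc42se1, an effector of the small GTPase Cdc42 (-0.15 ± 0.04, edgeR adjusted p = 0.0322), and Ctss were lower. Fcgr1 kept its call there without any 1 library, while that of Ctss was lost without Notch2 mutant deletion replicate 2 or 3, wild type deletion replicate 2, Notch2 mutant loxP replicate 2 or 3, or wild type loxP replicate 1. That of Cdc42se1 was lost without any Notch2 mutant deletion replicate, wild type deletion replicate 2 or 3, Notch2 mutant loxP replicate 1 or 3, or wild type loxP replicate 1. With Hes1 deletion 0 of 107 passed edgeR, DESeq2 or limma-voom, with 4 at unadjusted p under 0.05, and for the interaction 0 of 107 passed any of the 3, with 3 at unadjusted p under 0.05.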

How the data were processed

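RNA of 12 osteoclast cultures was sequenced as stranded poly(A) libraries with paired 75-base reads in 1 pool, per the labels' protocols. The authors deposited 1 file of whole-number read counts per gene and library. The genome build was GRCm38 and the tools were HTSeq for counting, HISAT2, Picard, SAMtools and DESeq2, per the submitters' processing notes. The sources used here give no versions, annotation release or strand setting. Of 55414 Ensembl identifiers, 52081 were named through GENCODE M21. The summary entries (15.8% to 19.0% of all entries per library, of which ambiguous reads were 6.11% to 8.31%) were left out. CPM divides by all gene reads.

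All 12 libraries were fitted in edgeR 4.0.16 (R 4.3.3) with TMM scaling, filterByExpr (minimum count 10, minimum total 15), 1 mean per group and the two-sided quasi-likelihood test, adjusted by Benjamini-Hochberg over 13403 genes at 0.05; SE is the absolute log2 fold change divided by the square root of F. The fits were tested on simulated data. Count ratios carry exact 95% binomial intervals (Clopper-Pearson) that, like the floor of 3 reads over a group, cover counting error only. Alternatives were DESeq2 1.42.0 and limma-voom 3.58.1, other scaling, filters, windows and designs, a replicate block, and each library left out. Promoter sequences are from RefSeq (GRCm38.p6); a read length of 75 bases set the windows for shared sequence. Named beside the 9 genes were neighbours past the threshold (up to 6 per comparison), the nearest tested gene on each side, H2A copies of at least 95% identity, the 5 most alike and 5 most opposite genes, and up to 4 genes per list. Hist3h2a and Gm20632 fall outside that rule. The 9 genes and all lists were chosen with earlier results of these data known.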

Additional observations from a re-analysis of the deposited data

How the results depend on the processing

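The Hes1 differences of Ctsk, Hist2h2be and Arnt kept their sign under every alternative run, and the count ratios of the other 6 genes kept theirs with any 1 library left out, the alternative run for them. Without a filter on low counts more calls were made in every comparison within 5 Mb of Ctsk, while among the 9 genes the count stayed at 0 for Notch2 with Hes1 deletion and for the interaction, and among listed genes at 0 for the interaction. Within 5 Mb of Ctsk they were 8, 1 and 10 for Notch2 mutant against wild type with Hes1 loxP, with Hes1 deletion and averaged, 8 and 10 for Hes1 deletion in Notch2 mutant and wild type cells, and 1 for the interaction. Among the 9 genes they were 2 with Hes1 loxP and 2 averaged, and among the listed genes 17, 6 and 20 for the 3 Notch2 comparisons and 1 for each Hes1 comparison. Requiring 50 reads on average, a filter Celf3 does not pass, gave 1 call near Ctsk in each Hes1 comparison and 1 among listed genes with Hes1 loxP. For Notch2 mutant against wild type with Hes1 loxP, DESeq2 called 2 genes near Ctsk, 1 of the 9 and 9 listed genes, and a fit of the compared groups alone called 2 and 1. In that comparison Ctsk passed without a filter (log2 fold change 0.25) and in DESeq2 (0.26). The cause of these shifts was not tested.

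With any 1 library left out, calls near Ctsk ranged from 0 to 5 with Hes1 loxP, 1 to 5 averaged, and 2 to 3 in each Hes1 comparison; those among the 9 genes from 0 to 2 in both the loxP and the averaged Notch2 comparison; and those among listed genes from 0 to 7 and 2 to 12. Ctsk ranged from 0.22 to 0.28 with Hes1 loxP and 0.16 to 0.24 averaged. The Arnt value averaged over Hes1 states ranged from -0.031 to 0.00020 and changed sign without Notch2 mutant deletion replicate 3.

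A pairing of the libraries by replicate number was not clear. Of 18 same-numbered pairs 1 had deviations correlated above 0.1 (range -0.09 to 0.11), while 7 of 12 libraries were closest to their own number. With a replicate block the Ctsk difference averaged over Hes1 states was 0.21 (edgeR adjusted p = 0.0457) and the calls near Ctsk with Hes1 loxP were 2.

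Depth limits the trace transcripts most: with 0 to 9 reads per loxP library for Celf3, Tmod4, Selenbp2 and Hist1h2al, a ratio can shift several-fold with a few reads.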

Other observations

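Within 5 Mb of Ctsk, 2 genes other than the 9 had all 6 deletion libraries apart from all 6 loxP libraries, Gm20632, with log2 fold changes of 0.87 in Notch2 mutant and 0.51 in wild type cells, and the ribosomal protein pseudogene Rpl21-ps11, with 0.31 and 0.56. Outside those 5 Mb, 2 further genes of chromosome 3 had all 6 deletion libraries apart from all 6 loxP libraries, Rpf1, a ribosome biogenesis factor, and Rsrc1, a splicing factor. Their log2 fold changes were 0.11 and 0.05 in Notch2 mutant and 0.17 and 0.07 in wild type cells, far smaller than those of Ctsk. Fos, the AP-1 subunit that osteoclast formation requires, was also apart, with log2 fold changes of 0.09 ± 0.05 in Notch2 mutant and 0.14 ± 0.05 in wild type cells (SE, edgeR adjusted p = 0.977 and 0.749). It averaged 178 ± 8.15 and 180 ± 12.5 CPM in Notch2 mutant and wild type deletion cells, and 163 ± 4.47 and 161 ± 5.83 CPM in Notch2 mutant and wild type loxP cells (SD, n = 3 each). These genes were picked after their values were seen.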
